A study of Mus musculus with 8 samples.

Results

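Lin28a, Lin28b, Trim71, Hmga2, Igf2bp1, Igf2bp2 and Igf2bp3 are 7 textbook targets of the let-7 miRNAs that together form the Lin28 axis. Their probes were chosen by the gene name printed in the array files, which gave 11 of 55681 probes and 7 of 36163 gene names, a rule that uses no measured value. The starting cells were of the mouse ES line E14Tg2A, strain 129/Ola, and no genetic change or drug is named for any group. They were collected undifferentiated in serum and LIF at 0 days in vitro (DIV) as ES cells, after 2 days as floating epiblast-like aggregates (ELA) in a chemically defined minimal medium at 2 DIV, after adhesion on poly-ornithine and laminin as NPC (neural progenitor cells) at 6 DIV, and after 4 further days without the B27 supplement as NPC/Neu at 10 DIV. Total RNA and RNA immunoprecipitated from the cytosol with a pan-Ago antibody (Ago-RNA) were hybridized at each of these 4 stages, with 1 array for each condition and 8 arrays in all. RNA of 3 experiments was pooled on each array per the labels, so no condition had a replicate and no p-value is given.

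The let-7 miRNAs are loaded into Argonaute (Ago) proteins and guide them to 3′ untranslated regions (UTRs), where pairing with the miRNA seed lowers translation and mRNA stability. Lin28a and Lin28b bind let-7 precursors and block their maturation, while let-7 represses both Lin28 mRNAs, which makes a double-negative loop that is set to high Lin28 and low let-7 in pluripotent cells. Trim71, Hmga2 and the Igf2bp mRNAs are repressed by mature let-7 and are typical of early embryonic and fetal tissue.

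The mature let-7 sequences below, taken from RefSeq (mouse GRCm38.p6), show the seed that defines the targets, with bases 2 to 8 in capitals. Of the 11 family members, 10 carry the same seed, among them let-7a, let-7g and miR-98, and let-7j differs from them.
mmu-let-7a-5p: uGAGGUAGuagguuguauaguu
mmu-let-7g-5p: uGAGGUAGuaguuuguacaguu
mmu-miR-98-5p: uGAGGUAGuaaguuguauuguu
mmu-let-7j: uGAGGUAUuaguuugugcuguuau

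The longest annotated 3′ UTR of each of the 7 mRNAs (GENCODE on mm9) was searched on the transcript strand for CTACCTC, which is opposite the shared seed, for the same letters followed by an A (CTACCTCA, counted within CTACCTC), and for TACCTCA outside of these. One site for each gene, and a second for Trim71 and Hmga2, are printed with the letters that pair with the seed and the A after them in capitals. They are the CTACCTCA sites nearest the stop codon, apart from the second Hmga2 site, which is a CTACCTC match inside the stretch that 1 of its array probes reads.
Lin28a: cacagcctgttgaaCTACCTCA
Lin28b: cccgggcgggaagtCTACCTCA
Trim71, first site: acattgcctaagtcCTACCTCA
Trim71, second site: gtgataatttctatCTACCTCA
Hmga2, first site: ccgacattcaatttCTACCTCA
Hmga2, site within a probe: atcaaaacacactaCTACCTCt
Igf2bp1: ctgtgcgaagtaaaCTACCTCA
Igf2bp2: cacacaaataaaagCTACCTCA
Igf2bp3: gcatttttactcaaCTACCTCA

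All of these sites lie in 3′ UTR exons on the minus strand of mm9. The Lin28a site is at chr4:133561104-133561125 and the Lin28b site at chr10:45100828-45100849. The Trim71 sites are at chr9:114421590-114421611 and chr9:114421494-114421515, and the Hmga2 sites at chr10:119801280-119801301 and chr10:119798747-119798768. The Igf2bp1, Igf2bp2 and Igf2bp3 sites are at chr11:95823092-95823113, chr16:22059546-22059567 and chr6:49036786-49036807.

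The 7 mRNAs differed in how many seed matches they carried and how far apart these lay. Hmga2 held 4 CTACCTC matches and 3 TACCTCA matches in 3014 bases, and Lin28b held 4 and 1 in 4445 bases. Igf2bp1 held 4 CTACCTC matches, 3 of them followed by the A, in the longest of these 3′ UTRs (6337 bases). Trim71 held 2 CTACCTCA matches in 1370 bases and Lin28a held 2 in 2775 bases. Igf2bp2 and Igf2bp3 had 1 CTACCTCA match each. CTACCTCA was thus found in all 7, against 3.02% of 19915 annotated 3′ UTRs and 5.99% of the 7101 that are at least as long as that of Trim71. CTACCTC was found in 8.80% and 17.1% of the same sets. The members were picked as known let-7 targets, so these shares are a description of them.

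**Figure D1:**
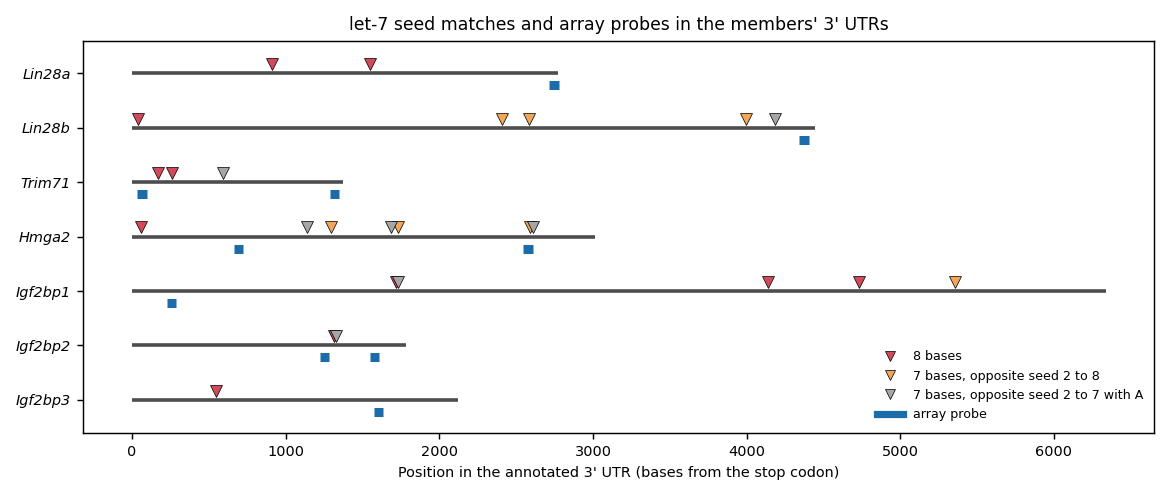
Map of the 7 annotated 3′ UTRs, with the position in bases from the stop codon on the horizontal axis, let-7 seed matches as triangles and array probes as blue bars. Hmga2 has 4 CTACCTC matches and 1 of its probes covers one of them, whereas Igf2bp2 and Igf2bp3 have 1 each; the Lin28b probe in the coding sequence is not drawn.

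Of the 11 probes, 10 lie in 3′ UTRs and 1 of Lin28b lies in the coding sequence. Lin28b, Trim71, Hmga2 and Igf2bp2 have a probe nearer to and a probe farther from the transcript end, called here the end probe and the inner probe. The end and inner probes start 101 and 5025 bases from the transcript end in Lin28b (A_55_P1970905 and A_52_P532355), 81 and 1335 in Trim71 (A_55_P1962334 and A_55_P2084348), 467 and 2349 in Hmga2 (A_52_P300730 and A_55_P2043921), and 237 and 559 in Igf2bp2 (A_51_P315682 and A_55_P2170737). The single probes of Lin28a (A_55_P2074371), Igf2bp1 (A_51_P497113) and Igf2bp3 (A_52_P508974) start 59, 6108 and 549 bases from it. Each probe matched the transcripts of 1 gene only. Each had 1 spot on each array, was well above background on all 8 arrays and was saturated on none.

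Levels are given as log2 signal after background correction and quantile normalization over the 8 arrays, and runs of 4 values are in the order ES, ELA, NPC, NPC/Neu. Ago enrichment, E, is log2 Ago-RNA minus log2 total RNA of the same stage, and it is relative to total RNA only, since control immunoprecipitations were not used here. ΔE is its difference between consecutive stages. A value was counted as a change or an enrichment where it reached 1, which is 2-fold, and "rose" and "fell" are used only for such values. The spread between repeated spots was taken from 399 other probes printed 10 times on each array, in 3 ranges of mean total RNA signal. The largest spot SD of a total RNA difference, of E and of ΔE was 0.060, 0.076 and 0.080 at a log2 signal of 13 or more, which covers Lin28a, Igf2bp1 and the end probes of Lin28b, Trim71 and Igf2bp2. It was 0.088, 0.079 and 0.10 between 10 and 13, which covers Hmga2, Igf2bp3 and the inner Igf2bp2 probe. It was 0.22, 0.19 and 0.26 under 10, which covers the inner probes of Lin28b and Trim71. The range goes by the mean over the 4 stages, and total RNA of the inner Hmga2 probe was at 9.22 in ES and 8.60 in ELA. For its values of those stages the larger SDs of the range under 10 apply. In NPC/Neu total RNA of Lin28a, Igf2bp1 and the Trim71 end probe was at 12.37, 12.56 and 12.58. That of the Igf2bp2 end probe was at 11.76 in ES. For these values the SDs between 10 and 13 apply. These SDs hold the spread within an array only, not that between cultures, and with 1 array per condition the precision of each value is limited by the number of arrays.

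The stages were checked against listed markers in total RNA. All 6 pluripotency genes fell from ES to NPC/Neu, Pou5f1 with log2 levels of 15.21, 14.76, 7.98 and 8.31 over the 4 stages. At the last step alone, from NPC to NPC/Neu, all 6 were higher, with a median change of 0.61. The lowest change there was 0.30 (Nanog), and Esrrb and Zfp42 rose by 1.96 and 1.06. Of 4 listed genes of primed epiblast, 2 rose from ES to ELA, Fgf5 from 11.96 to 14.78 and Dnmt3b by 1.32. Pou3f1 and Otx2 changed by 0.82 and 0.53, under the limit. From ELA to NPC 3 of the 4 fell, and Otx2 changed by -0.16. All 4 neural progenitor genes and the 3 neuronal genes found were at least 1 higher in NPC/Neu than in ES, Hes5 by 7.22 and Tubb3 by 4.06. Of 12 listed genes of mesendoderm, endoderm and glia, 4 were higher by at least 1 in NPC/Neu than in ES (T, Eomes, Foxa2 and Olig2, by 2.12, 2.73, 3.35 and 2.83). Gfap lay between 6.81 and 6.95, and Afp and S100b were not well above background on any array. Whether these genes mark such cells here, and what part such cells had in the results on later stages, was not tested. In these bulk samples fewer cells of a type and less RNA per cell cannot be told apart. On the ES Ago-RNA array the upper quartile of the mean signal was 3039, against 1060 to 1774 on the other arrays, and its part in the ES values of E was not tested.

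In total RNA the 7 mRNAs followed separate courses up to NPC and were all lower in NPC/Neu than in NPC. Lin28a and Trim71 fell after ELA, Hmga2 rose more than 12-fold from ELA to NPC, and Igf2bp2 rose from ES to ELA. From NPC to NPC/Neu all 11 probes were lower, with a median of -0.996 and a range of -2.11 to -0.33, while the median over all 55622 probes was -0.02. The same 11 probes were lower in Ago-RNA too, with a median of -1.03 against -0.02 over all probes. The Igf2bp3 value in Ago-RNA was -0.01, which is within its spot SD.

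By count, 2 of 11 member probes rose in total RNA from ES to ELA and 0 fell, where 3.08% of all probes rose and 3.21% fell. At the step to NPC, 2 rose and 3 fell, against 7.02% and 6.38% of all probes. At the step to NPC/Neu, 0 rose and 5 fell, against 3.7% and 2.61%. All 11 member probes were well above background, and among the probes of which this held on the arrays compared the shares that rose and fell were 4.2% and 4.42%, then 9.94% and 9.13%, then 5.87% and 4.11%. The 5 were Lin28a, the inner Lin28b probe, the end probe of Trim71 and both Hmga2 probes. The end probe of Lin28b was just short of the limit, with a change of -0.996, and reached it with 3 other normalizations (-1.01 to -1.29).

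**Figure D2:**
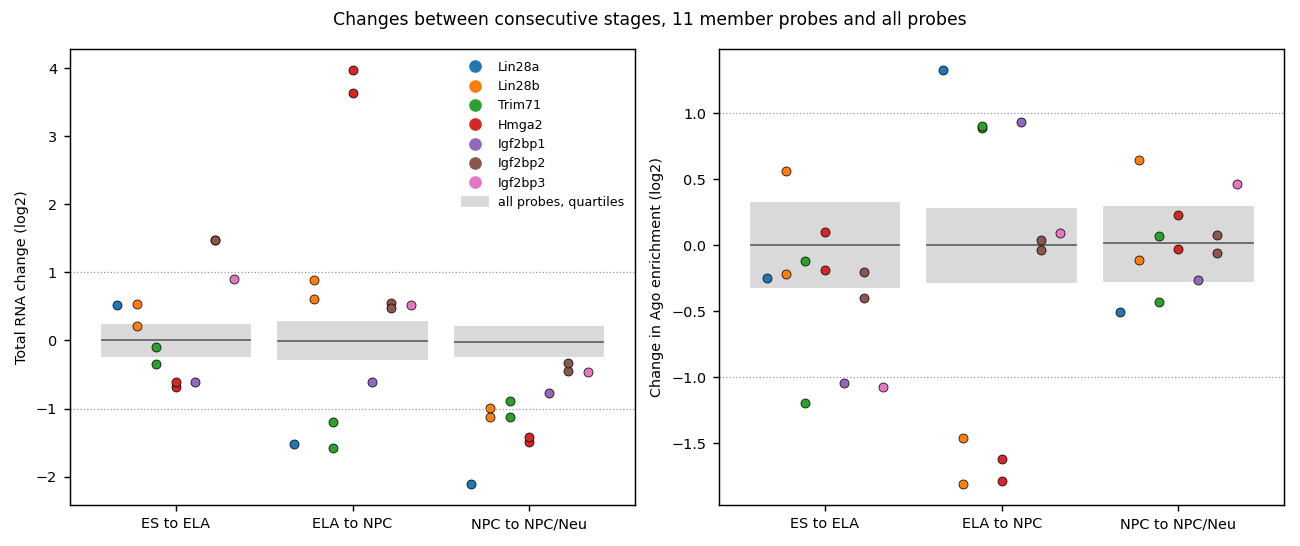
Changes in total RNA (left, log2) and in Ago enrichment (right, log2) between consecutive stages for the 11 member probes (points, coloured by gene), with the quartiles and median over all probes as grey boxes and lines and dotted lines at 1 and -1. All 11 points lie below 0 in total RNA from NPC to NPC/Neu, and the Hmga2 and Lin28b points lie below -1 in Ago enrichment from ELA to NPC.

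Lin28a encodes the Lin28 paralog that marks pluripotent cells, and it blocks let-7 maturation in the cytoplasm by recruiting terminal uridylyl transferases. Its total RNA stood at 15.49, 16.005, 14.48 and 12.37. The level was thus highest in ELA and lowest in NPC/Neu, and neighbours in this order lay farther apart than the spot SD. It fell 2.87-fold from ELA to NPC and 4.32-fold from NPC to NPC/Neu, and 0.4% of 31082 probes well above background had a lower value in the latter. In Ago-RNA the levels were 16.48, 16.75, 16.55 and 13.94. The Ago-RNA signal of NPC was therefore 0.20 below that of ELA while total RNA fell by 1.52 on the log2 scale. E was 0.99, 0.75, 2.07 and 1.57. In NPC 99.6% of probes well above background on both arrays had a lower E than Lin28a.

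Lin28b, the paralog that is found through fetal tissues and tumours and that also holds back let-7, did not share the fall of Lin28a after ELA. The end probe read 14.03, 14.56, 15.45 and 14.46 in total RNA, with its highest level in NPC and its lowest in ES. The inner probe read 9.39, 9.60, 10.21 and 9.09, again highest in NPC, and its ES and ELA levels were within the spot SD of each other. From NPC to NPC/Neu the end probe changed by -0.996 and the inner probe fell by 1.12. From ES to NPC/Neu they changed by 0.43 and -0.30, so the probes did not share a direction over the whole course.

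In Ago-RNA Lin28b was highest in ELA and lowest in NPC/Neu with both probes. The end probe read 15.49, 15.80, 15.24 and 14.13 and the inner probe 10.60, 11.37, 10.17 and 9.70. Its E was 1.46, 1.24, -0.21 and -0.33 with the end probe and 1.21, 1.77, -0.03 and 0.61 with the inner probe. Both probes showed Ago enrichment in ES and ELA and none past the limit in NPC or NPC/Neu. Their ΔE from ELA to NPC was -1.46 and -1.81, while the change in total RNA was under the limit (0.89 and 0.61). The probes differed in NPC/Neu, where the E of the end probe was 0.94 lower than that of the inner probe.

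Trim71, the mouse lin-41, is an RNA-binding ubiquitin ligase of the early embryo. Its end probe read 15.00, 14.90, 13.70 and 12.58 in total RNA and its inner probe 10.73, 10.39, 8.81 and 7.92. Both probes gave the order ES, ELA, NPC, NPC/Neu from highest to lowest, and neighbouring stages differed by more than the spot SD. Over the whole course total RNA fell 5.36-fold with the end probe and 7.01-fold with the inner probe. From ELA to NPC the fall was 2.30-fold and 2.99-fold.

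Ago-RNA of Trim71 followed the same order as its total RNA but not by the same amounts. It read 16.60, 15.31, 14.99 and 13.45 with the end probe and 11.87, 11.40, 10.72 and 9.91 with the inner probe. E was 1.60, 0.41, 1.30 and 0.87 with the end probe and 1.14, 1.02, 1.92 and 1.98 with the inner probe. Trim71 was thus enriched in ES and NPC with both probes and at the other stages with the inner probe. The inner probe's value in ELA was within its spot SD of the limit. In NPC/Neu the end probe also passed the limit under 2 alternatives, with an E of 1.05 by the software-processed signal scaled by each array's 75th percentile and of 1.35 by separate quantile normalization of Ago-RNA and total RNA arrays. From ES to ELA the ΔE was -1.19 with the end probe and -0.12 with the inner probe, a difference of 1.07 within 1 mRNA that exceeds the spot SD. From ELA to NPC both gave about the same ΔE, 0.89 and 0.90. With that scaled signal, the end probe's E in ES was 0.95 and its ΔE from ES to ELA was -0.63.

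Hmga2 is an architectural chromatin protein of proliferating embryonic cells, and its 3′ UTR is the classical example of let-7 repression through many sites. Its end probe, which reads the stretch with the last of the CTACCTC sites printed above, gave 11.30, 10.61, 14.59 and 13.10 in total RNA. The inner probe gave 9.22, 8.60, 12.24 and 10.83. With both probes the order was NPC, NPC/Neu, ES, ELA, and no neighbours were within the spot SD. The rise from ELA to NPC was 15.7-fold with the end probe and 12.4-fold with the inner probe, larger than in 99.7% and 99.5% of probes well above background. The fall from NPC to NPC/Neu was 2.81-fold and 2.66-fold.

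Ago-RNA of Hmga2 rose less than its total RNA. It read 12.88, 12.01, 14.36 and 13.10 with the end probe and 10.42, 9.91, 11.75 and 10.31 with the inner probe, so that the rise from ELA to NPC was 5.11-fold and 3.60-fold. E was 1.59, 1.40, -0.22 and 0.01 with the end probe and 1.20, 1.30, -0.48 and -0.51 with the inner probe. Hmga2 mRNA was thus enriched in Ago-RNA in ES and ELA, where its total RNA was lowest, and not in NPC or NPC/Neu. Total RNA is subtracted in E, so E and total RNA are not independent measures. The ΔE from ELA to NPC was -1.62 and -1.79.

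**Figure D3:**
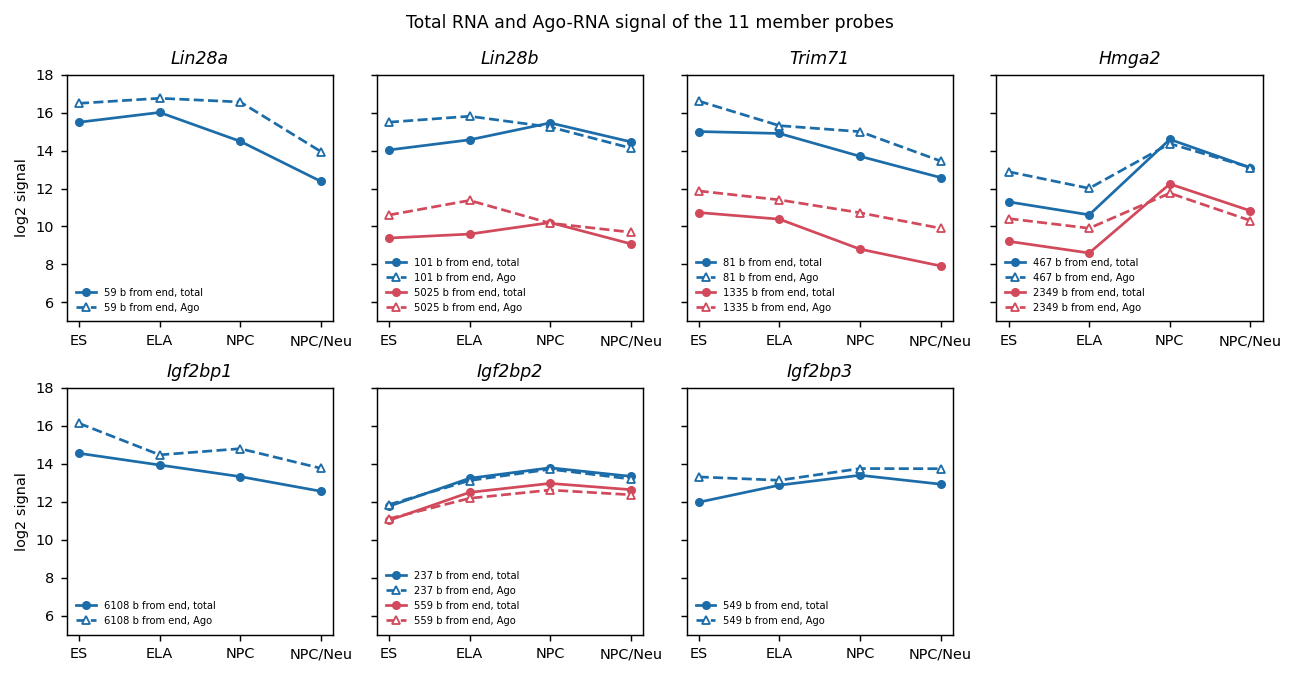
Log2 signal of each member probe in total RNA (filled circles, solid lines) and Ago-RNA (open triangles, dashed lines) at the 4 stages, 1 array per point and no error bar, with probes named by their distance in bases (b) from the transcript end. Total RNA of Hmga2 rises above its Ago-RNA at NPC, while the Lin28a Ago-RNA signal stays near 16.55 at NPC and its total RNA is at 14.48.

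The Igf2bp genes encode 3 related RNA-binding proteins of fetal tissue that stabilize and localize mRNAs and are known by their binding to Igf2 mRNA. The 3 paralogs did not move together. Total RNA of Igf2bp1 was highest in ES, and that of Igf2bp2 and Igf2bp3 was highest in NPC and lowest in ES.

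Igf2bp1, the paralog whose longest annotated 3′ UTR holds 3 CTACCTCA matches, read 14.55, 13.94, 13.33 and 12.56 in total RNA. Its probe starts 1486 bases before the nearest CTACCTC match, and whether the RNA it read holds the matches was not tested. Each step was under the limit (-0.61, -0.61 and -0.77), and over the whole course it fell 3.99-fold. In Ago-RNA it read 16.13, 14.47, 14.80 and 13.76. E was 1.58, 0.53, 1.47 and 1.21, so Igf2bp1 was enriched at every stage but ELA. The ΔE from ES to ELA was -1.04, and it was -0.56 with the same scaled signal and -0.85 with separate quantile normalization.

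Igf2bp2 read 11.76, 13.24, 13.79 and 13.34 in total RNA with its end probe and 11.02, 12.50, 12.97 and 12.64 with its inner probe. Both probes rose by 1.47 from ES to ELA, more than 98.4% of probes well above background, and gave the order NPC, NPC/Neu, ELA, ES. In Ago-RNA they read 11.85, 13.12, 13.71 and 13.20, and 11.11, 12.18, 12.62 and 12.37. E lay between -0.14 and 0.09 with the end probe and between -0.35 and 0.09 with the inner probe. No stage passed the limit, and the span of E over the stages (0.22 and 0.44) was the smallest among the members.

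Igf2bp3 read 11.98, 12.88, 13.40 and 12.93 in total RNA, and its levels in ELA and NPC/Neu were within the spot SD of each other. In Ago-RNA it read 13.31, 13.13, 13.75 and 13.74. E was 1.33, 0.26, 0.35 and 0.81, so the mRNA passed the limit in ES only. In NPC/Neu it also passed it with the scaled signal (1.09) and with separate quantile normalization (1.29). The ΔE from ES to ELA was -1.07, the change in total RNA was 0.90 and that in Ago-RNA was -0.18.

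The 7 mRNAs thus fell into different patterns of Ago enrichment. All 11 probes had an E above 0 in ES, with a median of 1.21 against 0.02 over all probes, and 8 of 11 reached the limit, against 6.86% of all probes. Of probes well above background 11.9% reached it in ES, and 4.6%, 6.27% and 13.4% at the later stages. The 3 member probes that did not in ES were both Igf2bp2 probes and Lin28a, whose 0.99 lay just under the limit. It was 0.36 with the scaled signal, 1.04 with the quantile normalized processed signal and 1.14 with separate quantile normalization. In ELA 5 of 11 were enriched against 2.84%, namely both probes of Lin28b and of Hmga2 and the inner Trim71 probe. The last of these, at 1.02, was within its spot SD of the limit. In NPC 4 were enriched against 3.7%, namely Lin28a, Igf2bp1 and both Trim71 probes. In NPC/Neu 3 were enriched against 7.52%, namely Lin28a, Igf2bp1 and the inner Trim71 probe. The median E of the 11 probes at the 3 later stages was 0.75, -0.03 and 0.61.

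Counts of ΔE, which follows from the values of E above, were as follows. From ES to ELA 0 of 11 rose and 3 fell (Igf2bp1, Igf2bp3 and the end probe of Trim71), against 5.35% and 4.46% of all probes and 9.11% and 7.04% of probes well above background. From ELA to NPC Lin28a was the 1 probe that rose, by 1.33, and the 4 probes of Lin28b and Hmga2 fell, against 2.21% and 2.94% of all probes and 1.8% and 3.75% of those well above background. The values of Trim71 and Igf2bp1 there lay just under the limit, between 0.89 and 0.94. At the last step 0 rose and 0 fell, against 2.06% and 3.36% of all probes and 2.48% and 4.53% of those well above background, and the values lay between -0.50 and 0.64.

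**Figure D4:**
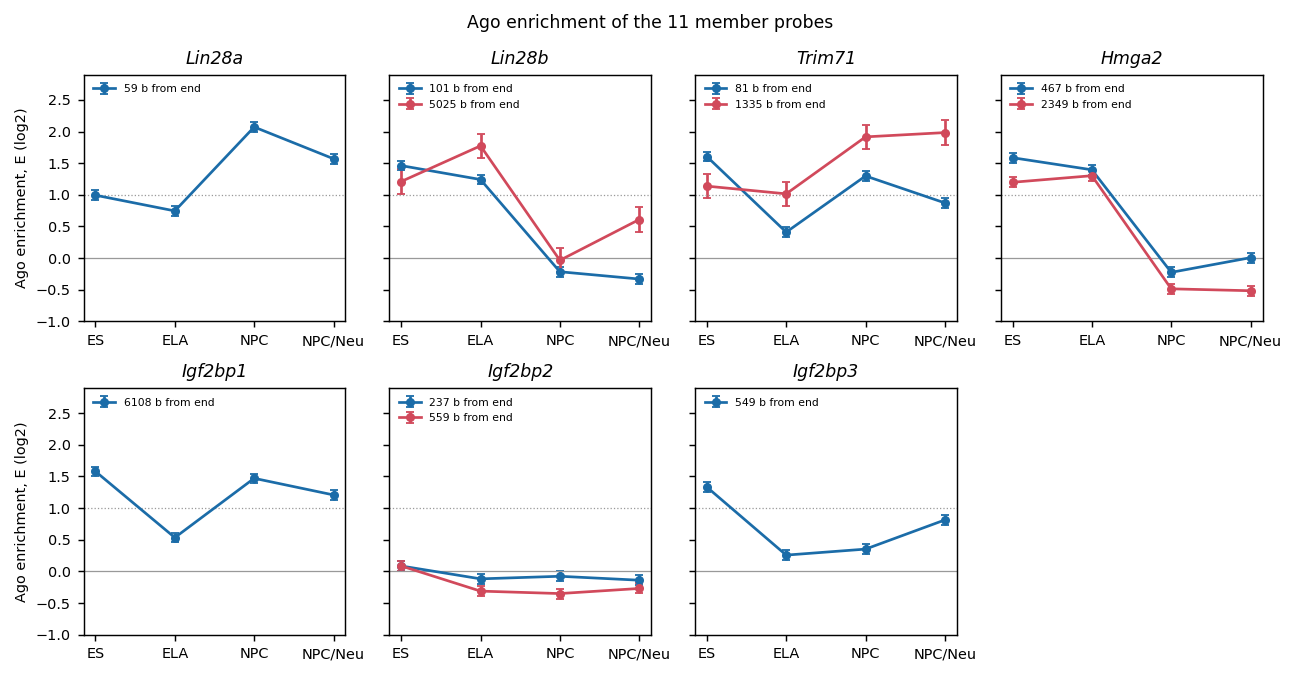
Ago enrichment E (log2 Ago-RNA minus log2 total RNA) of each member probe at the 4 stages, with the largest spot SD of its signal range as error bars, a grey line at 0 and a dotted line at 1. Bars of the inner Hmga2 probe follow its mean signal and are too short for its ES and ELA values. Bars of Lin28a, Igf2bp1 and the end probes of Trim71 and Igf2bp2 are slightly too short where total RNA was below 13. Lin28b and Hmga2 drop from above 1 in ELA to between -0.48 and -0.03 in NPC, Lin28a reaches 2.07 in NPC, and Igf2bp2 stays between -0.35 and 0.09.

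The members' mRNAs are long, from 3505 to 8378 bases, and E of long mRNAs was above that of all probes. Over detected probes of other genes with transcripts in that range, the median E over the 4 stages was 0.62, 0.19, 0.32 and 0.59, and 28.6%, 7.00%, 11.1% and 29.1% reached the limit. The medians of the 11 member probes lay above these in ES and ELA, below in NPC, and within 0.03 of them in NPC/Neu. The part of transcript length in the members' E was not tested.

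Among 24 other listed let-7 targets, 23 were on the array, each with a probe well above background on some array. Their values were averaged over all probes of a gene, whereas the shares beside them are of single probes above background on every array compared. In total RNA 1 rose and 2 fell from ES to ELA, 4 rose and 1 fell at the step to NPC, and 0 rose and 1 fell at the step to NPC/Neu, beside the shares of probes well above background given with the member counts (4.2% and 4.42%, 9.94% and 9.13%, 5.87% and 4.11%). Their median change at the last step was 0.08, against -0.996 for the member probes. Nr6a1, a nuclear receptor that silences pluripotency genes, rose by 1.58 and then fell by 1.57 and by 2.03, and it was the 1 gene of the list that fell at the last step. Ccnd2, a G1 cyclin, rose by 4.79 from ELA to NPC. Over the 4 stages, in order, 8, 3, 7 and 7 of the 23 genes were enriched in Ago-RNA, where 11.9%, 4.6%, 6.27% and 13.4% of probes well above background were, with medians of 0.73, 0.48, 0.54 and 0.72. Of detected probes of transcripts in the members' length range, 28.6%, 7.00%, 11.1% and 29.1% reached the limit. The part of transcript length in these counts was not tested.

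The 11 listed genes of let-7 processing and turnover were also on the array, with values averaged and set beside shares in the same way. Dis3l2, the exonuclease that degrades uridylated pre-let-7, read 11.10, 11.44, 12.70 and 12.32 in total RNA, and Zcchc11, a terminal uridylyl transferase that acts with Lin28a, read 10.86, 11.10, 12.38 and 12.50. Trim25, an RNA-binding ubiquitin ligase that assists this uridylylation, fell by 2.27 from ELA to NPC. Over the stages 7, 0, 1 and 5 of the 11 were enriched, beside the same 11.9%, 4.6%, 6.27% and 13.4% of probes well above background, with Dicer1, which cuts miRNA precursors, at 2.05, 0.76, 1.90 and 2.08. The shares among detected probes of transcripts in the members' length range were 28.6%, 7.00%, 11.1% and 29.1%. The part of transcript length here was not tested either. From ES to ELA the median ΔE of this list was -0.97 and 4 of 11 fell, beside 7.04% of probes well above background. The member probes had a median of -0.22 at that step. Mature miRNAs were not measured on these arrays.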

How the data were processed

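RNA from the 4 stages was labeled for Agilent SurePrint G3 Mouse one-color arrays, of which all 8 lay on 1 slide. The labels state 50 ng of labeled RNA. The authors deposited spot intensity values as extracted from the scans, with no normalization between arrays: the mean intensity of each spot, a median for the background around it, and an intensity that the software had processed further. The labels name mm9, limma and Feature Extraction 9.1, and the file headers name version 10.7.3.1.

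With limma 3.58.1 in R 4.3.3, the local background was removed by normexp with an offset of 50, and signals were quantile normalized over the 8 arrays, without control and irregular spots, and the spots of a probe were averaged. This forces all arrays onto 1 distribution, so changes are relative to the bulk of probes, and the offset makes changes of dim probes smaller. Other values were computed with Python 3.11.15, pandas 2.3.3 and numpy 2.4.6. Scripts were tested on simulated data. Probe sequences were placed on GENCODE vM1 transcripts, whose genome is that of the array annotation, and 3′ UTRs are the longest annotated there.

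The members and gene lists were chosen with earlier results of these data known. Every member was named probe by probe. Genes of other lists were named among the 2 with the largest change in each direction or as stage markers, together with the 3 gene names closest to each member over the 8 arrays, and some genes that this rule names are not reported here. The alternatives were an offset of 16, the processed intensity with quantile normalization or scaled to the 75th percentile of an array, quantile normalization within Ago-RNA and total RNA separately, and only probes well above background. Normalization without the ES Ago-RNA array was added after seeing the data. The thresholds of the study's own Ago calls were not used. Polysome, protein, small RNA and perturbation data were not analysed here.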

Additional observations from a re-analysis of the deposited data

Results flagged for a closer look

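Ago enrichment of Lin28b and Hmga2 was above 1 in ELA and below 0 in NPC with every probe of these genes, although the value of the inner Lin28b probe in NPC, -0.03, was within its spot SD of 0. The change was -1.46 with the end probe and -1.81 with the inner probe of Lin28b, and -1.62 with the end probe and -1.79 with the inner probe of Hmga2. With 1 array per condition the difference between the stages was not tested. The zero of E is set by the normalization. Under the alternatives the E of Hmga2 in NPC lay between -0.25 and 0.19 with its end probe, and that of Lin28b between -0.28 and 0.09 with the end probe and between -0.09 and 0.30 with the inner probe, while all 4 changes stayed below -1.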

How the results depend on the processing

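Every member probe passed the filter on probes well above background, which therefore changed no value. Across the other 4 alternatives 93 of 110 member values kept their direction, among them the 40 that reached 1 in size, of which 37 stayed past it. The exceptions were the E in ES of the Trim71 end probe (0.95) and the ΔE from ES to ELA of that probe (-0.63) and of Igf2bp1 (-0.56), all with the software-processed signal scaled by each array's 75th percentile, and for Igf2bp1 also with separate quantile normalization (-0.85). The 75th percentile scaling moved the median E of all probes by -0.66 in ES, -0.32 in ELA and -0.38 in NPC/Neu. With it, 5 member probes rather than 3 were enriched in NPC/Neu, 1 rather than 3 fell in E from ES to ELA, and 3 rather than 1 rose from ELA to NPC. Separate quantile normalization of Ago-RNA and total RNA also gave 5 enriched probes in NPC/Neu, and quantile normalization of the processed signal gave 2 that rose in E from ELA to NPC. The cause was not tested. Without the ES Ago-RNA array in the normalization, 13 of 13 counts that do not use it were within 1.5 times the main count, and the E of the inner Trim71 probe in ELA was 0.999 in place of 1.02. No paired analysis was possible because each condition has 1 array and the groups thus share a single replicate number (Ago-RNA and total RNA of a stage are already set against each other in E), and leaving out a replicate was not possible for the same reason.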

Other observations

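Over the log2 signals of the 8 arrays, 31738 probes well above background on at least 4 arrays were set against the brightest probe of each member. Probes of the member's own name were passed over. This is a description in which all points share 1 array each and the stages. Among the nearest to Lin28a were LOC100503357 (Pearson's r 0.985) and Rhpn2 (0.984). The names nearest to Lin28b were Rbpjl (0.963), Guf1 (0.936) and AK046125 (0.935), the lowest values among the members. Next to Trim71 stood probes for 2 intergenic intervals of the minus strand of mm9, chr9:114412295-114418384 (0.992) and chr9:114416254-114416844 (0.991), and Ccne1 (0.987). Both intervals lie beyond the annotated 3′ end of Trim71, the nearer one 2008 bases from it. For Hmga2 the nearest gene names were Echdc1 (0.971) and 4930452B06Rik (0.968), and for Igf2bp1 they were Gm13271 (0.987) and Dse (0.983), after 1 unnamed interval each. Igf2bp2 was closest to Sept4 (0.993), Klhdc2 (0.986) and Tead2 (0.984), and Igf2bp3 to Wipf1 (0.983), Ttc21b (0.978) and Slc4a4 (0.976).

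Other genes were divided by their let-7 seed matches in the same way. Among genes other than the members with a 3′ UTR of at least 1370 bases, detected probes of genes with a CTACCTCA match had a median E of 0.45, 0.15, 0.24 and 0.42 over the 4 stages, from 487 to 521 probes. The medians of genes with none of the 3 motifs were 0.38, 0.13, 0.22 and 0.39, and the quartiles of both sets overlapped at every stage. In total RNA from NPC to NPC/Neu the medians were -0.04 and 0.01, and 6.78% and 4.01% of the probes fell by at least 1, against 5 of 11 member probes.

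Of 4 listed let-7 host or primary transcripts, Wdr82 and Huwe1 were found by name. Wdr82 had an E of 0.81, 0.02, 0.14 and 0.90 over the stages, under the limit at each. Huwe1, whose introns hold let-7f-2 and miR-98, had an E of 3.16, 1.01, 2.03 and 2.95 over the stages, and its total RNA read 14.46, 15.04, 14.80 and 15.35.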
